A study of Arabidopsis thaliana with 12 samples.

Results

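The 39 genes described here were nearly silent in wild-type Arabidopsis shoots and carried transcripts in shoots of the clf mutant. They were picked from their measured values: under 0.5 CPM (a gene's count relative to its library's total count, on a scale where 1 count was worth 0.0340 to 0.0621 CPM) in all 6 wild-type libraries, and a mean of at least 1.5 CPM in both clf groups. Of 32678 genes in the count table, 45 met these conditions. The choice left out 16 loci by name, most of them floral MADS-box and homeobox genes, and 6 of those 16 were among the 45. The contrast between clf and wild type chose the genes, so their difference between genotypes is given as a description, with no test.

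The libraries came from shoots of Arabidopsis thaliana seedlings, either Col wild type or clf, a mutant of CURLY LEAF; the allele is not given in the sources used here. All seedlings spent 12 days on B5 medium, followed by 3 days on medium that was either sufficient or deficient in iron, in cycles of 16 h light and 8 h dark at 22 °C. The 4 groups (wild type under sufficient iron, wild type under deficient iron, clf under sufficient iron, clf under deficient iron) held 3 libraries each. Nothing in the labels says whether the 3 libraries of a group came from separate plants, so p-values measure the spread between these libraries. The labels also name root as a tissue. The 5 leaf genes on a marker list summed to between 50843 and 80710 CPM in every library, and the 12 root genes on another list to between 331 and 673 CPM.

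CURLY LEAF is a histone methyltransferase of Polycomb repressive complex 2, which places the trimethyl mark on lysine 27 of histone H3. In plants this mark covers many genes that belong to another organ or stage, such as floral and seed regulators in leaves, and holds them silent. SWINGER, a related methyltransferase, carries part of the same work. CLF transcripts themselves were measured at 12.1, 14.5 and 11.8 CPM in wild type under sufficient iron and at 16.0, 15 and 18.5 CPM in wild type under deficient iron. In clf they stood at 4.69, 3.02 and 5.02 CPM under sufficient iron and at 3.43, 4.76 and 6.02 CPM under deficient iron. No clf library reached the lowest wild-type library. The log2 fold change of CLF was -1.72 under sufficient iron (SE 0.22, edgeR adjusted p = 0.0024) and -1.86 under deficient iron (SE 0.22, edgeR adjusted p = 0.0013).

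Transcripts of the 39 genes were few in absolute terms. Library totals ran from 16092041 to 29400813 counts. The ceiling of 0.5 CPM amounted to 8.05 counts in the shallowest wild-type library and to 13.4 counts in the deepest. Summed over the 39 genes, the wild-type libraries held between 71 and 127 counts each and the clf libraries between 2617 and 4845. In CPM the sum was 3.98, 4.97 and 4.13 in wild type under sufficient iron and 3.43, 3.62 and 4.73 under deficient iron. It was 144, 158 and 132 in clf under sufficient iron and 166, 171 and 152 under deficient iron. CPM takes no account of the TMM scaling factors used in the edgeR fits. These factors were 0.940 to 1.01 in clf under sufficient iron and 1.04 to 1.12 under deficient iron. Relative to those fits, CPM values in clf stand higher under deficient iron, and separations on the CPM scale share this limit. In bulk tissue, a gene active in few cells and a gene weakly active in many cells cannot be told apart.

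No gene of the 39 was at 0 counts in any clf library, whereas between 10 and 20 of the 39 were at 0 in each wild-type library. The lowest clf value of any of them was 0.628 CPM (ZFP2) and the highest wild-type value was 0.497 CPM (FLS2). Over the 6 wild-type libraries together, AT5G60140, AT3G49270 and IND had 0 counts, and the median gene had 10. The ratio of summed counts per library total, clf over wild type, had a median of 42.9 over the 36 genes with wild-type counts and ranged from 6.0 (AT4G22390) to 473 (SCPL43). With the 3 genes at 0 placed at their lower bound, taken as 3 counts over the 6 wild-type libraries, the median was 46.6. In clf, 27 of the 39 reached 1.5 CPM in all 6 libraries, and 12 had a mean of at least 5 CPM.

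**Figure D1:**
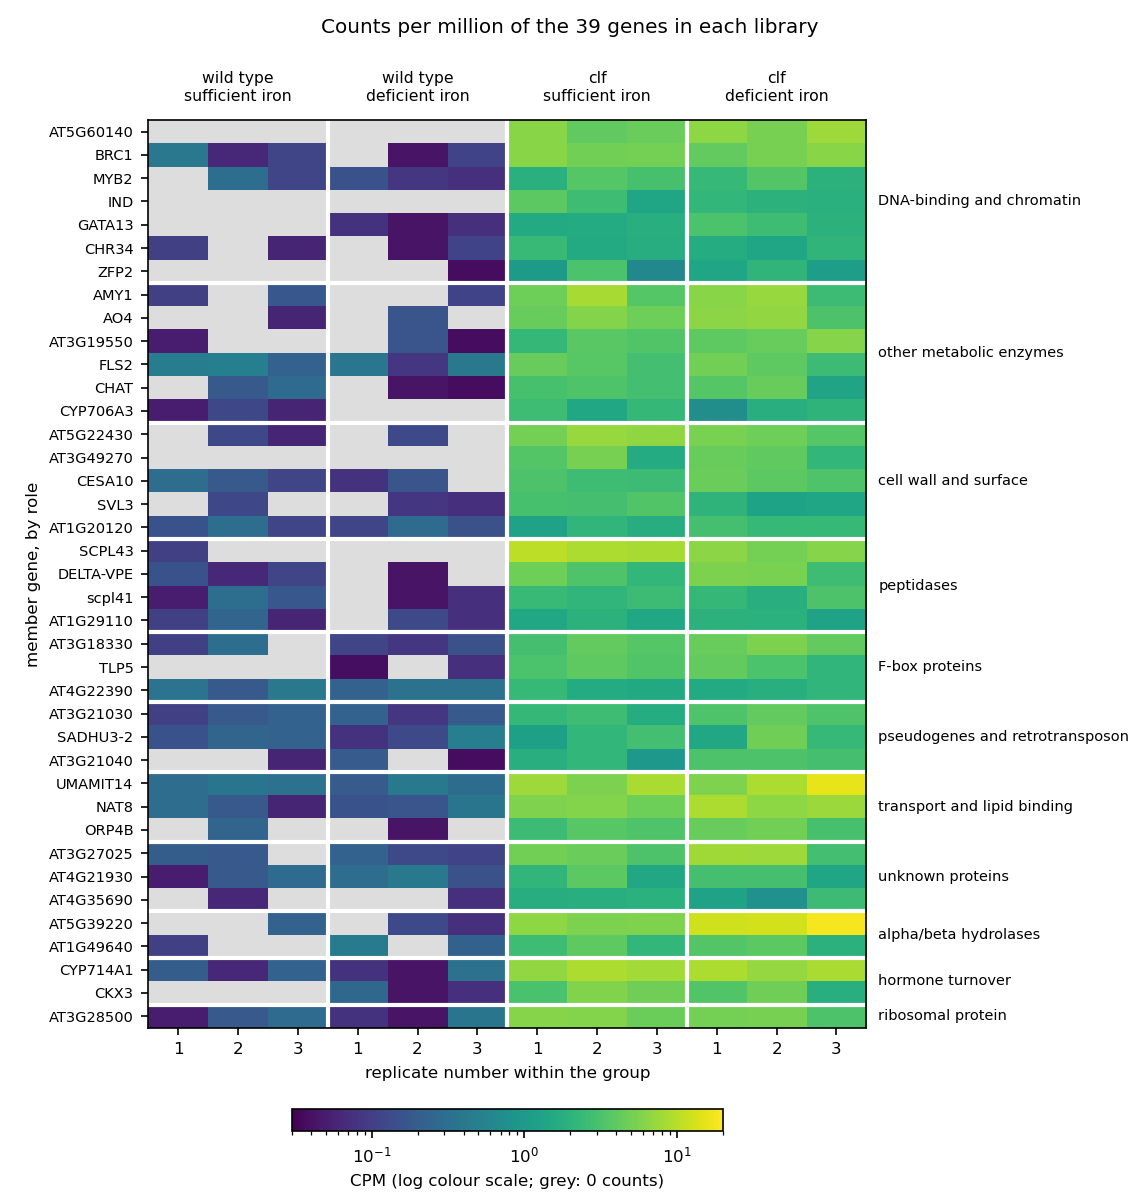
CPM of each of the 39 genes (vertical axis, grouped by role) in each of the 12 libraries (horizontal axis, by group and replicate), on a logarithmic colour scale from 0.03 to 20, with grey for 0 counts. The 6 wild-type columns are grey or dark in every row, and the 6 clf columns lie between 0.628 and 18.4 CPM.

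Per kilobase of transcript, on the deposited FPKM scale, the 39 genes were low among expressed genes. Their mean FPKM over the 6 clf libraries had a median of 2.45 and ran from 0.690 for CHR34 to 8.03 for AT5G39220. The median over all 19148 genes tested was 8.11. Of those tested genes, 24.5% lay below the median of the 39 and 49.8% lay below AT5G39220.

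The thresholds cut through a continuous range of values. Just under the wild-type ceiling lay FLS2, SADHU3-2 and AT1G49640, whose highest wild-type libraries stood at 0.497, 0.485 and 0.424 CPM. Just over it lay AT1G03710, AT5G40960 and CER4, with highest wild-type values of 0.501, 0.524 and 0.559 CPM and clf means between 1.95 and 12.9 CPM. The clf floor was narrowly met by CYP706A3, AT4G35690 and ZFP2, whose lower group means were 1.54, 1.55 and 1.56 CPM. It was narrowly missed by AT5G44440, UGT73C2 and AT3G60170, whose lower group means were 1.46, 1.42 and 1.41 CPM.

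The opposite pattern was rarer under the same thresholds. In 2 genes the 6 clf libraries were under 0.5 CPM while both wild-type groups averaged at least 1.5 CPM. Another 6 genes silent in wild type reached 1.5 CPM in clf under sufficient iron alone, and 6 reached it under deficient iron alone. With iron in the place of genotype, 17 genes were silent on sufficient iron and reached 1.5 CPM in both deficient groups. The reverse held for 1 gene. Of the 13252 genes under 0.5 CPM in all wild-type libraries, 8107 had 0 counts in all 12 libraries.

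Among the 39, 7 encode DNA-binding or chromatin proteins. The B3-domain gene AT5G60140 (chr5:24213865-24215516, minus strand, 4 exons) was the most abundant of them in clf. It had 0 counts in all 6 wild-type libraries and stood at 6.29, 4.05 and 4.54 CPM in clf under sufficient iron and at 6.67, 5.22 and 7.75 CPM under deficient iron. All 6 clf libraries were thus within a factor of 1.91 of each other, and the summed ratio to wild type was at least 254-fold. BRC1, a TCP transcription factor that holds back the growth of axillary buds, lay between 0 and 0.408 CPM in wild type. In clf it was at 6.29, 4.96 and 5.17 CPM under sufficient iron and at 4.23, 5.26 and 6.29 CPM under deficient iron, and the iron groups overlapped. IND, the basic helix-loop-helix factor that forms the opening margin of the fruit, had 0 counts in wild type. It was measured at 3.91, 2.68 and 1.40 CPM in clf under sufficient iron and at 2.21, 1.98 and 1.87 CPM under deficient iron. Its range under sufficient iron enclosed its range under deficient iron.

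Another 4 genes of the 7 had means over the 6 clf libraries of 1.59 to 2.72 CPM. MYB2, a factor known from responses to drought and abscisic acid, was between 0 and 0.311 CPM in wild type. Its clf values were 1.87, 3.60 and 2.99 CPM under sufficient iron and 2.35, 3.53 and 1.97 CPM under deficient iron. GATA13, a zinc finger factor of the GATA family, had at most 0.0771 CPM in wild type. It stood at 1.60, 1.65 and 1.84 CPM in clf under sufficient iron and at 3.15, 2.68 and 1.94 CPM under deficient iron, so its deficient libraries were all above its sufficient ones. ZFP2, a C2H2 zinc finger protein known from floral organ abscission, had a single count in wild type, for a summed ratio of 203 (exact 95% interval of counts 36.0 to 8040). Its clf values of 1.05, 3.20 and 0.628 CPM under sufficient iron and 1.41, 2.12 and 1.16 CPM under deficient iron had the widest spread of all 39 genes, with the highest library 5.09 times the lowest. CHR34, annotated as a chromatin remodeling protein, averaged 1.94 ± 0.475 CPM (SD, n = 3) under sufficient iron and 1.74 ± 0.351 CPM (SD, n = 3) under deficient iron in clf, against at most 0.112 CPM in wild type.

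Both genes of hormone turnover act on the removal of a growth hormone. CYP714A1 (chr5:8567504-8570367, minus strand, 3 exons), a cytochrome P450 that inactivates gibberellins, was between 0.0421 and 0.335 CPM in wild type. It stood at 7.06, 9.02 and 8.21 CPM in clf under sufficient iron and at 8.92, 7.20 and 8.74 CPM under deficient iron. Its highest clf library was 1.28 times its lowest, the narrowest ratio among the 39. CKX3, a cytokinin oxidase that degrades cytokinins, was between 0 and 0.270 CPM in wild type and averaged 4.60 ± 1.41 CPM (SD, n = 3) under sufficient iron and 3.39 ± 1.57 CPM (SD, n = 3) under deficient iron in clf.

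Transport and lipid binding held 3 genes. UMAMIT14 (chr2:16491143-16493343, minus strand, 7 exons), a membrane carrier that exports amino acids, had counts in all 6 wild-type libraries, from 0.193 to 0.421 CPM. Its clf libraries stood at 7.66, 5.54 and 8.74 CPM under sufficient iron and at 5.63, 8.96 and 15.9 CPM under deficient iron. The value of 15.9 CPM came from replicate 3, and the other two deficient libraries lay near or inside the sufficient range. NAT8, of the nucleobase-ascorbate transporter family, was between 0.0582 and 0.373 CPM in wild type. It reached 5.62, 5.99 and 4.78 CPM in clf under sufficient iron and 9.06, 6.70 and 7.45 CPM under deficient iron, so the groups did not overlap. ORP4B, an oxysterol-binding protein relative, averaged 3.19 ± 0.544 and 4.14 ± 1.00 CPM (SD, n = 3) in clf under sufficient and deficient iron.

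Peptidase genes made up 4 of the 39. SCPL43 (chr2:5069544-5072656, minus strand, 11 exons), a serine carboxypeptidase-like protein, had 2 counts in a single wild-type library and none in the other five. In clf it was at 10.5, 8.90 and 8.55 CPM under sufficient iron and at 6.48, 5.15 and 6.16 CPM under deficient iron, with all deficient libraries below all sufficient ones. The summed ratio was 473 (exact 95% interval of counts 130 to 3908). DELTA-VPE, a vacuolar processing enzyme known from the seed coat, averaged 3.44 ± 1.26 and 4.56 ± 1.65 CPM (SD, n = 3) in clf under sufficient and deficient iron, against at most 0.153 CPM in wild type. The other two, scpl41 and the cysteine proteinase gene AT1G29110, had clf group means between 1.64 and 2.44 CPM.

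Enzymes of other metabolism numbered 6. AMY1, an alpha-amylase that breaks down starch, lay between 0 and 0.175 CPM in wild type. It stood at 4.74, 8.56 and 3.57 CPM in clf under sufficient iron and at 6.34, 7.27 and 2.62 CPM under deficient iron, with replicate 3 the lowest in both clf groups. AO4, an aldehyde oxidase, was at 4.41, 6.05 and 4.73 CPM in clf under sufficient iron and at 6.39, 7.02 and 3.23 CPM under deficient iron, against at most 0.168 CPM in wild type. Here too replicate 3 was the lowest deficient library. FLS2, annotated as flavonol synthase 2, was the gene nearest the ceiling, with counts in all 6 wild-type libraries and a range of 0.0842 to 0.497 CPM. In clf it was at 4.41, 3.65 and 2.90 CPM under sufficient iron and at 5.02, 3.99 and 2.58 CPM under deficient iron. CYP706A3, a cytochrome P450 known to oxidise terpenes in flowers, was at 2.65, 1.43 and 2.27 CPM in clf under sufficient iron and at 0.751, 1.83 and 2.04 CPM under deficient iron, against at most 0.124 CPM in wild type. CHAT, the acetyltransferase that forms the leaf volatile hexenyl acetate, averaged 3.06 ± 0.270 and 3.12 ± 1.60 CPM (SD, n = 3) in clf under sufficient and deficient iron. AT3G19550, annotated as a glutamate racemase, averaged 3.15 CPM under sufficient and 4.83 CPM under deficient iron in clf, against 0.0428 CPM over the wild-type libraries.

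Cell wall and surface proteins also numbered 5. AT5G22430, of the pollen Ole e 1 allergen and extensin family, was at most 0.126 CPM in wild type. It stood at 5.13, 7.36 and 6.76 CPM in clf under sufficient iron and at 5.40, 4.76 and 3.57 CPM under deficient iron, and a deficient library lay within the sufficient range. AT3G49270, an extensin-like protein, had 0 counts in wild type and averaged 3.49 ± 1.83 and 3.56 ± 1.18 CPM (SD, n = 3) in clf under sufficient and deficient iron, at least 148-fold above wild type by summed counts. CESA10, a cellulose synthase catalytic subunit, averaged 2.85 ± 0.353 and 3.90 ± 0.589 CPM (SD, n = 3). SVL3, of a family of membrane-anchored proteins needed for normal cell walls, was at 2.98, 2.91 and 3.43 CPM in clf under sufficient iron and at 2.07, 1.31 and 1.36 CPM under deficient iron, with no overlap. The GDSL lipase gene AT1G20120 averaged 1.73 ± 0.450 and 2.54 ± 0.358 CPM (SD, n = 3).

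The gene with the highest clf level of all, AT5G39220 (chr5:15705706-15708274, plus strand, 10 exons), is annotated as an alpha/beta-hydrolase. It had 9 counts over the 6 wild-type libraries, none above 0.233 CPM. In clf it stood at 6.62, 5.54 and 5.70 CPM under sufficient iron and at 12.4, 12.9 and 18.4 CPM under deficient iron, so every deficient library was above every sufficient one. The other hydrolase, AT1G49640, was between 0 and 0.424 CPM in wild type. It was at 2.65, 3.99 and 2.22 CPM in clf under sufficient iron and at 3.47, 3.84 and 1.94 CPM under deficient iron, and these groups overlapped.

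**Figure D2:**
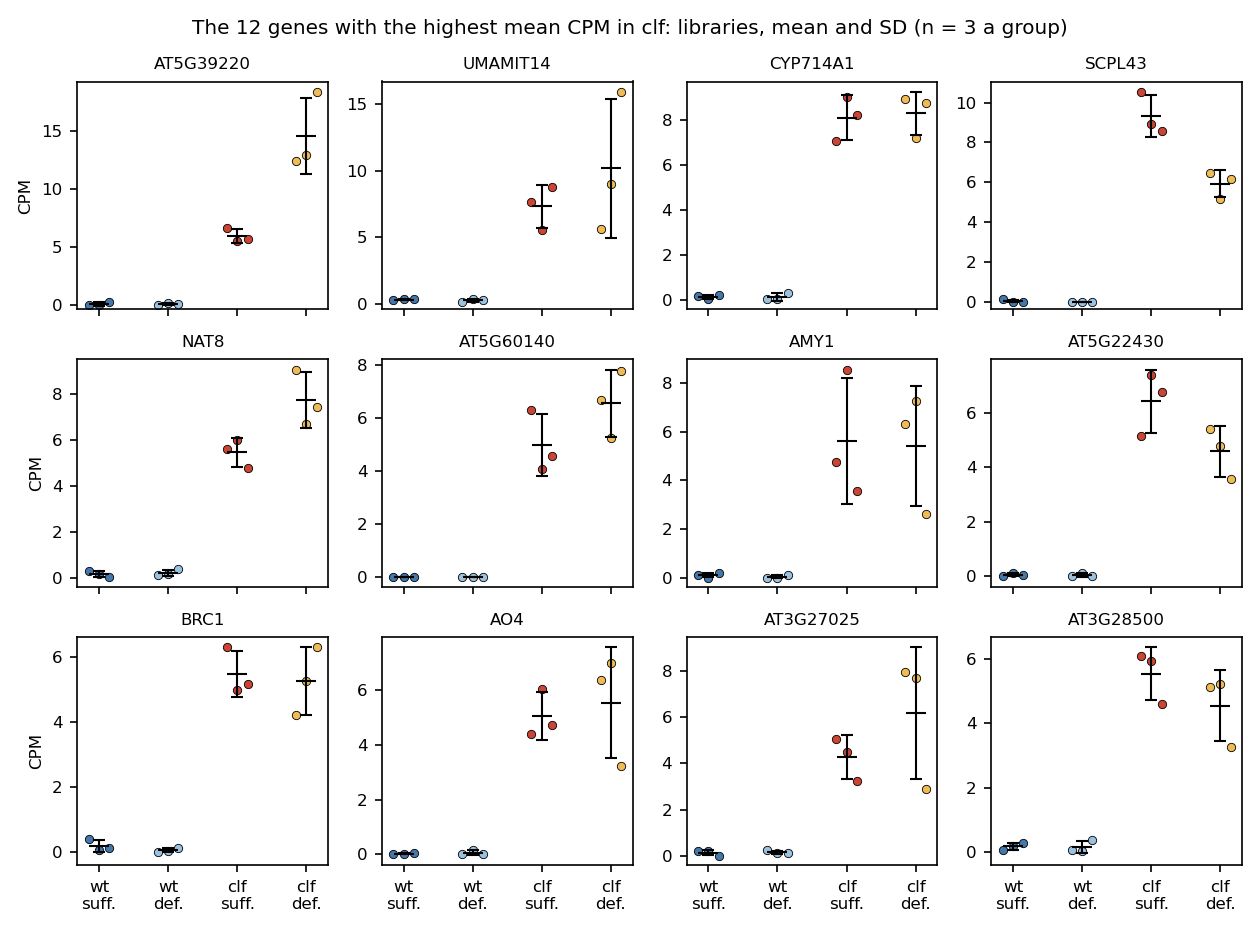
CPM (vertical axes, linear) of the 12 genes with the highest mean over the 6 clf libraries, by group (wt is wild type, suff. and def. are sufficient and deficient iron), with a point for each library and the mean and SD of each group. Wild-type points sit at or near 0 in all 12 panels. The clf points of AT5G39220 are 5.54 to 6.62 CPM under sufficient and 12.4 to 18.4 CPM under deficient iron, and those of CYP714A1 are 7.06 to 9.02 CPM over both.

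F-box proteins, which recruit targets for ubiquitination, gave 3 genes with clf group means from 1.84 to 4.76 CPM: AT3G18330, TLP5 and AT4G22390. AT4G22390 had counts in all 6 wild-type libraries (0.186 to 0.407 CPM) and the smallest summed ratio, 6.0. The acidic ribosomal protein gene AT3G28500 averaged 5.53 ± 0.818 and 4.53 ± 1.10 CPM (SD, n = 3) in clf under sufficient and deficient iron. The 3 genes annotated as uncharacterized or of unknown function were AT3G27025, AT4G21930 and AT4G35690. AT4G35690 was at 1.71, 1.77 and 1.93 CPM in clf under sufficient iron and at 1.27, 0.811 and 2.58 CPM under deficient iron, with at most 0.0745 CPM in wild type. Its sufficient libraries lay inside the span of its deficient ones.

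Loci annotated as pseudogenes numbered 3. SADHU3-2, a retrotransposon of the Sadhu family, was between 0.0771 and 0.485 CPM in wild type. It was at 1.21, 2.23 and 2.90 CPM in clf under sufficient iron and at 1.46, 4.94 and 2.31 CPM under deficient iron, a span of 4.07 times from lowest to highest. The adjacent pseudogenes AT3G21030 (chr3:7370168-7371403) and AT3G21040 (chr3:7372760-7374364), both on the plus strand, are alike over 694 aligned bases at 89.2% identity. AT3G21030 was at 2.26, 2.68 and 1.69 CPM in clf under sufficient iron and at 3.33, 4.23 and 3.37 CPM under deficient iron, against at most 0.233 CPM in wild type. AT3G21040 was at 1.76, 2.23 and 0.966 CPM under sufficient iron and at 3.29, 3.25 and 2.93 CPM under deficient iron, against at most 0.193 CPM in wild type. Both had all deficient libraries above all sufficient ones.

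How iron supply affected the 39 genes within clf was not used to choose them, apart from the floor in both groups, and was tested. All 39 passed the filter on low counts. By the quasi-likelihood test of edgeR, with p-values adjusted after Benjamini and Hochberg over 19148 genes, 0 of the 39 changed between deficient and sufficient iron at an adjusted p under 0.05, where 0.752% of all tested genes rose and 0.768% fell. Log2 fold changes of the 39 ran from -1.14 to 1.13 with a median of -0.12, and 15 of 39 were above 0. The median over all tested genes was -0.02, with 47.1% above 0. At an unadjusted p under 0.05 there were 3 of the 39, where 14.8% of all tested genes lay under that value. These were AT5G39220 (log2 fold change 1.13, SE 0.47, adjusted p = 0.29), SCPL43 (-0.81, SE 0.32, adjusted p = 0.29) and SVL3 (-1.14, SE 0.51, adjusted p = 0.33), all by edgeR. Each moved the same way in all 3 deficient libraries against all 3 sufficient ones.

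The calls on AT5G39220 and SCPL43 depended on the tool, the pseudocount and the libraries in the fit. With the replicate number as a block in the fit of all 12 libraries, 0 of the 39 were called by edgeR, where 0.564% of all tested genes rose and 0.695% fell. That block is a limited check, since replicate numbers did not pair wild type with clf on deficient iron. There, deviations from the group mean correlated at -0.38 for number 2 and -0.32 for number 3. In a fit of the 6 clf libraries alone with the replicate number as a block, chosen after seeing the data, AT5G39220 rose by 1.14 on the log2 scale (edgeR adjusted p = 0.010) and SCPL43 fell by 0.79 (edgeR adjusted p = 0.021). That fit called 5.38% of its 18585 genes higher and 3.85% lower, and no other gene of the 39. DESeq2 also called these 2 genes, with adjusted p of 0.00091 and 0.020, out of 2.52% of its genes higher and 2.31% lower. A limma fit on log2(FPKM + 1) called AT5G39220 higher and SCPL43 and SVL3 lower, out of 2.41% of its genes higher and 0.648% lower, and one on log2(FPKM + 0.1) called none of the 39. On the CPM scale, all deficient clf libraries were above all sufficient ones in 8 of the 39 genes and below in 2, where 22.1% and 4.04% of all tested genes did so.

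Whether the iron effect differed between genotypes could not be read for these genes, since the conditions that chose them held every wild-type library under 0.5 CPM.

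**Figure D3:**
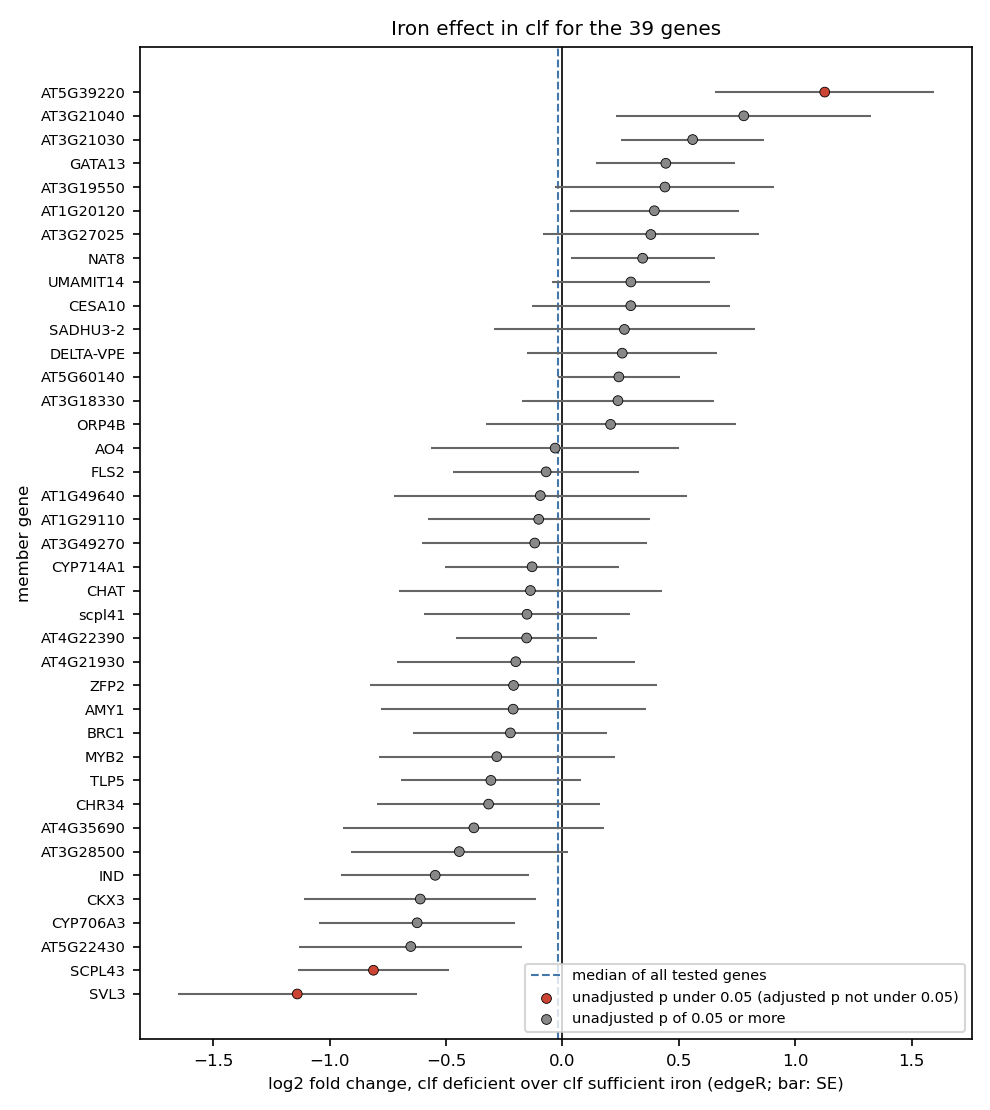
Log2 fold change of each of the 39 genes between clf under deficient and clf under sufficient iron (horizontal axis; bars are SE from edgeR, 3 libraries a group), sorted by size, with the median of all tested genes as a dashed line. The values run from -1.14 (SVL3) to 1.13 (AT5G39220), and the 3 red points are those with an unadjusted p under 0.05.

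Clf libraries of a group differed among themselves. The SD divided by the mean had a median over the 39 genes of 0.220 under sufficient iron and 0.243 under deficient iron. On deficient iron, replicate 3 was the lowest of the 3 libraries for 22 of the 39 genes (56.4%), against 38.8% of the other 19109 tested genes. Replicate 1 of that group was the highest for 16 (41.0%), against 18.9%, and the lowest for 8 (20.5%), against 43.8%. On sufficient iron replicate 2 was the highest for 20 (51.3%), against 29.0%, and replicate 3 was the lowest for 17 (43.6%), against 45.4%. Replicate 3 of both clf groups stood apart in clock genes. The evening clock gene TOC1 was measured at 32.7 and 33.7 CPM in replicate 3 of clf under sufficient and deficient iron and between 9.70 and 13.1 CPM in the other 4 clf libraries. LHY, a morning gene, was at 103 and 182 CPM in replicate 3 and between 200 and 396 CPM in the others. A like shift was seen in wild type, in replicate 3 under sufficient and replicate 2 under deficient iron. TOC1 was at 49.6 and 34.0 CPM in these and between 9.69 and 12.0 CPM in the other wild-type libraries. LHY was at 54.2 CPM against 195 and 210 under sufficient iron, and at 237 CPM against 427 and 463 under deficient iron. The part of these clock differences in the values of the 39 genes was not tested. Without replicate 3 of both clf groups, 37 of the 39 still met the rule, and 0 were called for iron.

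Neighbouring genes were not chosen by their values, so clf against wild type could be tested in them. The annotated genes next to the 39 on either side numbered 76, without the 39 themselves and the left-out loci, and 45 of them could be tested. On sufficient iron 2 of 45 (4.44%) were higher in clf and 1 was lower by edgeR at an adjusted p under 0.05, where 3.59% of all tested genes were higher and 1.32% lower. Under deficient iron 4 of 45 (8.89%) were higher and 1 was lower, where 4.01% of all tested genes were higher and 2.46% lower. The median log2 fold change of these neighbours was 0.14 under sufficient and 0.19 under deficient iron, and -0.02 over all tested genes in both. Of the next 4 genes on each side, 180 could be tested. Under sufficient iron 7 (3.89%) were higher and 2 (1.11%) lower. Under deficient iron 8 (4.44%) were higher and 4 (2.22%) lower. These shares lay near those over all tested genes.

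A single nearest neighbour was higher in clf on both iron levels. It was CYP89A9, a cytochrome P450 known from chlorophyll breakdown, which lies 1649 bases from CHAT on the same strand. It was at 13.7, 11.8 and 11.0 CPM in wild type under sufficient iron and at 15.5, 16.9 and 15.1 CPM under deficient iron. In clf it was at 61.0, 84.8 and 78.2 CPM under sufficient iron and at 85.5, 95.7 and 68.4 CPM under deficient iron. The groups were far apart, with a log2 fold change of 2.49 under sufficient iron (SE 0.17, edgeR adjusted p = 4.7e-05) and 2.34 under deficient iron (SE 0.17, edgeR adjusted p = 5.2e-05).

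Next to the pseudogene pair, in a run of 4 consecutive loci on the same strand, lay AT3G21020 and AT3G21010, both of unknown function and named after their values were seen. AT3G21010 was between 0.757 and 1.43 CPM in wild type and between 6.22 and 10.2 CPM in clf. On the log2 scale the difference was 2.48 under sufficient iron (SE 0.25, edgeR adjusted p = 0.00055) and 2.72 under deficient iron (SE 0.25, edgeR adjusted p = 0.00024). AT3G21020 was between 0.204 and 1.37 CPM in wild type and between 1.69 and 2.76 CPM in clf, with an edgeR adjusted p of 0.17 under sufficient and 0.028 under deficient iron. On the other side of the pair, AT3G21050 averaged 0.815 CPM in wild type and 0.822 CPM in clf. AT5G44630, an annotated terpenoid cyclase 2544 bases from CYP706A3 and also named after its values were seen, had 0 counts in wild type and 0.102 to 0.986 CPM in clf, with edgeR adjusted p of 0.093 and 0.056.

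**Figure D4:**
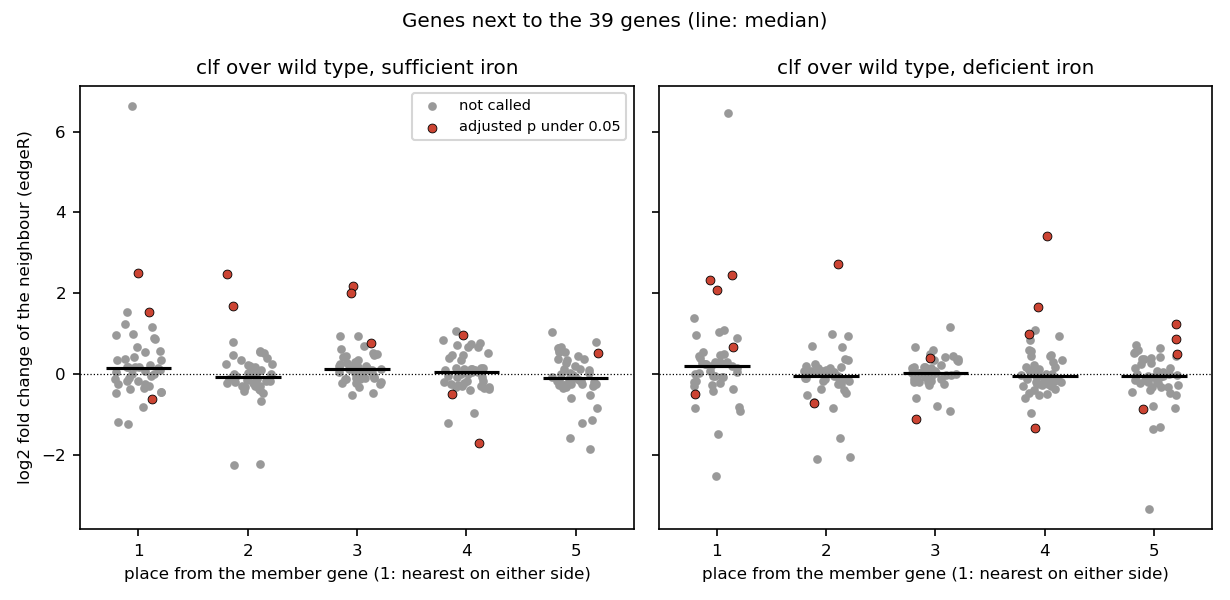
Log2 fold change, clf over wild type, of the tested genes that lie next to the 39 genes, by place from the nearest (1) to the fifth (5) on either side, under sufficient iron (left) and deficient iron (right). Red points had an edgeR adjusted p under 0.05, and the black lines are medians, 0.14 and 0.19 at the nearest place.

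Similar sequences elsewhere in the genome limit some of these values, since the handling of reads that fit several places is not given in the sources used here. In a search of each transcript against all annotated transcripts, 13 of the 39 had a match of at least 80% identity over at least 100 bases, and 3 of at least 90%. AT3G18330 matched AT2G07130 at 92.0% over 1221 bases. That locus is missing from the count table, so its level could not be compared. ORP4B matched ORP4A at 92.0% over 800 bases, and ORP4A averaged 0.105 CPM in wild type and 0.0530 CPM in clf. AO4 matched AT1G02590 at 95.1% over 162 bases, and that gene had 0 counts in all libraries. The more abundant relatives were farther in sequence. CESA1, 83.2% identical to CESA10, averaged 675 CPM in wild type and 575 CPM in clf and was not called. Likewise scpl42, at 82.3% and 83.0% identity to SCPL43 and scpl41, averaged 45.3 CPM in both genotypes.

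Overlapping annotation touched 6 of the 39: CESA10, AT3G19550, DELTA-VPE, AT4G21930, AMY1 and ORP4B. The libraries were made with a stranded kit, but the strand setting of the counting is not given, so reads of a gene and an overlapping opposite gene may not be separated. ORP4B shares 658 bases on its own strand with AT4G25845, which averaged 0 CPM in wild type and 0.0176 CPM in clf. AT3G19550 shares 579 bases with AT3G19552 on the opposite strand, a gene missing from the count table. AT4G21930 shares 408 bases with AT4G21926 on the opposite strand, which averaged 0.245 CPM in wild type and 0.212 CPM in clf. AMY1 shares 16 bases on its own strand with ATGP4, which averaged 24.0 CPM in wild type and 28.5 CPM in clf.

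The 200 bases before the annotated start of each of the 36 protein-coding genes were read from the TAIR10.1 reference and searched on both strands for short motifs known from Polycomb or organ-specific genes. The GAGA repeat (GAGAGA or TCTCTC) stood in 8 of 36 windows (22.2%), against 17.2% of 27443 windows of all protein-coding genes. The telobox (AAACCCTA or TAGGGTTT) stood in 3 (8.33%, against 3.72%), and the RY element (CATGCA or TGCATG), known from seed genes, in 4 (11.1%, against 6.69%). The palindromic G-box (CACGTG) stood in 2 (5.56%, against 5.64%), and TATAAA or TTTATA in 13 (36.1%, against 41.0%). In 19 of the 36 none of the first 4 motifs occurred. Copies of the RY element and of the GAGA repeat can overlap themselves. For AT1G29110, GATA13 and IND the annotated transcript starts at the coding sequence, so these windows lie directly before it. IND is among the genes with an RY element. The windows of CHAT, AT4G21930 and ORP4B overlap another annotated gene. A match describes the letters of the window and is not evidence of a bound site.

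The windows of 6 genes are printed 5′ to 3′ on the gene's own strand, with the motifs other than TATAAA in capitals, to show a window of each kind. AT5G39220 and CYP714A1, with the highest and the third highest clf levels, each hold a GAGA repeat near the far end, at chr5:15705506-15705705 (plus strand) and chr5:8570368-8570567 (minus strand). CKX3, at chr5:23048293-23048492 (minus strand), holds an RY element close to its start, and AT4G35690, at chr4:16921600-16921799 (plus strand), a telobox. Of the 3 genes without wild-type counts, AT3G49270 holds a G-box, at chr3:18268272-18268471 (minus strand), and AT5G60140, at chr5:24215517-24215716 (minus strand), holds none of the 4.
AT5G39220: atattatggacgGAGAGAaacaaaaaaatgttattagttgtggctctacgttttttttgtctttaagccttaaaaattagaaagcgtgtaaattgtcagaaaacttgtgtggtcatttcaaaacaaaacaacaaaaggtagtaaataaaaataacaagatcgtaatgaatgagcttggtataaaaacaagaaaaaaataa
CYP714A1: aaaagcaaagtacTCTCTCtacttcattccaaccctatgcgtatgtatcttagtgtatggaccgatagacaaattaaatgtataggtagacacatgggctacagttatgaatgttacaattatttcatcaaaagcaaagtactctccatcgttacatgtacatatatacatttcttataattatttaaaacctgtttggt
CKX3: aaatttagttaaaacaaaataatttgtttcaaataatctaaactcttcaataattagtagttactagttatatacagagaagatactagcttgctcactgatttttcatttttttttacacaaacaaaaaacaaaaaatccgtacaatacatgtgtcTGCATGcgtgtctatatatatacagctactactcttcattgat
AT4G35690: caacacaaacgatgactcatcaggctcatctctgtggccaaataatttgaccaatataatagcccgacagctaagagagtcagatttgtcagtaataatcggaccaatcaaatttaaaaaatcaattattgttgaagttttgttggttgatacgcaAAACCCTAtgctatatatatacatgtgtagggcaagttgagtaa
AT3G49270: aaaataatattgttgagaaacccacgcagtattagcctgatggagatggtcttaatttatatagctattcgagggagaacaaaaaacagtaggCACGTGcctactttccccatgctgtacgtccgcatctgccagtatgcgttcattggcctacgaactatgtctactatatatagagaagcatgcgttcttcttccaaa
AT5G60140: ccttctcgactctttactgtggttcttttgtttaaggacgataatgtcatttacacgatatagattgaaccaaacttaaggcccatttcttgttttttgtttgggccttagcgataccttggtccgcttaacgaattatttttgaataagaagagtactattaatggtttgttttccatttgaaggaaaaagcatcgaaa

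In other annotated features the 39 genes resembled the rest of the table, with some exceptions given here as counts. Transcripts of the 36 protein-coding genes had a median length of 1571 bases and 3 exons, against 1541 bases and 4 exons over 26712 protein-coding genes of the table. The 39 lay on all 5 chromosomes, with 12 on chromosome 3 (30.8%, against 20.1% of the table's genes) and 6 on chromosome 1 (15.4%, against 25.4%). For 18 of the 36 the reference carries a note on the number of plant structures in which expression was recorded. The median of that number was 10, with a range of 6 to 20, against 22 over 13522 protein-coding genes with such a note. At most 10 structures were noted for 10 of these 18 genes (55.6%), against 26.8%. The genes were chosen for near silence in wild-type shoots and the comparison genes were not, so the choice itself favours a lower number.

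Other genes tied to Polycomb silencing came from lists. Without MEA, 15 of the listed genes for Polycomb proteins were tested, and none rose and 1, CLF itself, fell on either iron level by edgeR at an adjusted p under 0.05. MEA, a methyltransferase gene of the same complex known from the endosperm, was among the 16 loci left out by name and itself met the conditions on CPM. It was at most 0.126 CPM in wild type and averaged 1.93 ± 0.843 and 1.80 ± 0.796 CPM (SD, n = 3) in clf under sufficient and deficient iron. SWN, the gene of SWINGER, was between 26.3 and 35.9 CPM in wild type and between 30.4 and 40.0 CPM in clf. Of 11 tested MADS-box genes left on their list, 7 rose and 2 fell under sufficient iron, and 6 rose and 0 fell under deficient iron, with a median log2 fold change of 1.16 on both against -0.02 over all tested genes. FLC, the floral repressor known as a Polycomb target, averaged 2.83 ± 0.578 CPM in wild type and 12.5 ± 1.03 CPM in clf under sufficient iron (SD, n = 3). On the log2 scale it rose by 2.01 (SE 0.35, edgeR adjusted p = 0.0090) there and 2.42 (SE 0.35, edgeR adjusted p = 0.0030) under deficient iron. AGL17, another MADS-box gene that promotes flowering, missed the clf floor with means of 1.87 CPM under sufficient and 1.29 CPM under deficient iron in clf, against 0.153 and 0.0124 CPM in wild type.

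Lists of genes that mark other organs differed in level. The 17 seed maturation genes summed to at most 0.815 CPM in wild type and 0.607 CPM in clf under sufficient iron, with 12 and 11 of them at 0 in all 3 libraries. On deficient iron they summed to between 38.5 and 70.7 CPM in wild type and to between 1.74 and 20.9 CPM in clf. There 7 and 8 of the 17 were at 0 in all 3 libraries, and most of each sum came from SESA2 and SESA5. SESA2 was at 22.8 to 51.1 CPM in wild type and 0.751 to 15.6 CPM in clf under deficient iron. SESA5 was at 15.4 to 19.2 CPM in wild type and 0.741 to 4.39 CPM in clf. Of 2 tested genes of that list, SESA5, a seed storage albumin, fell in clf under deficient iron (log2 fold change -3.20, edgeR adjusted p = 0.047). The 10 anther and carpel genes summed to at most 2.19 CPM in wild type and to between 2.43 and 4.25 CPM in clf over both iron levels, with 6 to 8 of them at 0 in a group. A single gene of that list could be tested, SPT, a factor of carpel growth, which rose in clf under deficient iron (log2 fold change 1.5, SE 0.28, edgeR adjusted p = 0.012) and had 0.73 (SE 0.28, edgeR adjusted p = 0.19) under sufficient iron. The 9 meristem and boundary genes summed to between 1.69 and 4.33 CPM in wild type and to between 5.07 and 7.11 CPM in clf, and 0 of 3 tested were called on either iron level by edgeR. The 12 root genes summed to 403 to 673 CPM in wild type and 388 to 587 CPM in clf under sufficient iron. Under deficient iron the sums were 427 to 556 and 331 to 435 CPM. Of 8 tested root genes, 1 was higher and 1 lower in clf by edgeR there, with a median log2 fold change of -1.13. On sufficient iron 1 was higher and 0 lower, with a median of 0.08. The part of these cell types in the values of the 39 genes was not tested.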

How the data were processed

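RNA was sequenced from stranded mRNA libraries, per the labels' protocols, of 12 shoot samples in 4 groups, assigned from titles and genotype and treatment labels. Reads were aligned to TAIR10 with TopHat2, per the submitters' processing notes; no source used here gives its version, the counting tool or the strand setting. The authors deposited whole-number counts per gene, with no normalization. Each deposited FPKM value equals its count scaled by gene length and library total, which held to rounding for the 12911 genes with over 50 counts in every library. Names, coordinates and sequences came from the RefSeq TAIR10.1 annotation (31912 of 32678 identifiers found).

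CPM used column sums. Counts were scaled with TMM, restricted to the 19148 genes that filterByExpr kept by group (at least 10 counts, 15 in total) and fitted with edgeR 4.0.16 glmQLFit and glmQLFTest under R 4.3.3 on all 12 libraries (8 residual degrees of freedom), with Benjamini-Hochberg adjustment over all genes tested. The pipeline was tested on simulated data. limma 3.58.1 and DESeq2 1.42.0 served as alternatives. Library totals were 16092041 to 29400813 counts; the precision of a value rests on its counts, and intervals and bounds cover counting error only, since reads carried no molecular identifiers. A gene at 0 in wild type was given 3 counts over the group for a lower bound; other ratios have exact 95% intervals.

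The 39 genes, the gene lists and the naming rule were chosen with earlier results of these data known. Values in every library are given for the 10 highest genes, transcription factors, the 4 widest ranges among clf libraries, adjacent loci and genes nearest a threshold, with wild type as ranges; neighbours are named when called at both iron levels, and AT3G21010, AT3G21020, AT3G21050 and AT5G44630 were named after their values were seen. MEA, a left-out locus, was not counted in its list. From the lists 2 symbols, BMI1B and A9, were left out since they were not matched to the reference's names for those loci. Some loci with another main name in the reference, such as BMI1A (DRIP2), were matched and kept. Same-numbered clf libraries deviated together across genes (correlations 0.18, 0.39 and 0.51), but replicates 1 and 2 also did so with each other's number (0.27 and 0.21), and only replicate 3 stood apart. Wild-type and clf libraries under sufficient iron behaved alike (0.43, 0.29 and 0.64; 0.38 and 0.30 across replicates 1 and 2). Under deficient iron the same numbers gave 0.19, -0.38 and -0.32, and wild-type replicate 2 went with clf replicate 3 (0.43).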

Additional observations from a re-analysis of the deposited data

How the results depend on the processing

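The rule gave 39 genes. It gave 22 with a wild-type ceiling of 0.25 CPM, 71 with a ceiling of 1 CPM, 57 with a clf floor of 1 CPM, 21 with a floor of 3 CPM, 35 with TMM library sizes (34 shared with the 39), 27 when every clf library had to reach 1.5 CPM, and 36 to 45 when a library was left out.

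For iron in clf, 144 genes rose and 147 fell. With the replicate number as a block in the fit of all 12 libraries the counts were 108 and 133, and with the replicate block in the 6 clf libraries alone (added after seeing the data) 1000 and 715. They were 483 and 441 with DESeq2, 60 and 53 with the 6 clf libraries alone, 405 higher with limma on log2(FPKM + 0.1), 462 higher with a pseudocount of 1, and 95 and 53 without replicate 3 of both clf groups. Leaving out a library gave 46 to 265 higher and 44 to 188 lower. Among the 39, DESeq2 and the block fit of the 6 clf libraries called 1 higher and 1 lower, limma with a pseudocount of 1 called 1 higher and 2 lower, and every other alternative run called 0. AT5G39220 kept log2 fold changes of 0.94 to 1.26, SCPL43 -0.91 to -0.53 and SVL3 -1.42 to -0.48.

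For clf under sufficient iron, 687 genes rose and 253 fell. limma on log2(FPKM + 0.1) gave 1092 and 158, DESeq2 gave 592 lower, and leaving out a library gave 307 to 723 higher and 79 to 293 lower. For clf under deficient iron, 768 rose and 471 fell. DESeq2 gave 1163 and 819, limma gave 274 lower, and leaving out a library gave 358 to 905 higher and 138 to 651 lower. Nearest neighbours called higher were 1 to 5 under sufficient and 2 to 7 under deficient iron over the 18 alternatives compared for clf against wild type. The limma fit with a pseudocount of 1 was not among these 18. Under the replicate block the number under sufficient iron was 1. CLF, CYP89A9, FLC and AGL17 kept direction and call under each of these 18 alternatives. The causes of these changes were not tested, beyond the fewer libraries in some fits.

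A gene near the ceiling or floor can enter or leave the group by a few counts, and a change of less than a few counts in wild type was not detectable at this depth.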
